A study of Mus musculus with 12 samples.

Results

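The genes described here encode the enzymes that make, use and recycle glutathione and the enzymes that remove superoxide and peroxides. They were taken as every protein-coding gene of the count tables whose mouse symbol is a numbered Gpx, Gst, Mgst, Prdx, Sod or Txnrd, or Cat, Gclc, Gclm, Gsr or Gss, which gave 50 of 55536 genes. By class they comprise 8 glutathione peroxidases, 6 peroxiredoxins, 3 superoxide dismutases, 1 catalase, 3 thioredoxin reductases, 4 genes of glutathione synthesis and recycling, 3 microsomal glutathione S-transferases and 22 other glutathione S-transferases. Poly-A RNA sequencing had been carried out on the brown fat (BAT) and the inguinal white fat (IWAT) of C57BL/6 mice. In each depot 3 libraries of wild-type mice on normal chow (WT-NC) stood beside 3 libraries of mice with the genotype Adv-CGRPalpha+/- on a high-fat diet (KI-HFD). The series title places the work in the study of CGRP sensory neurons, thermogenesis and obesity under diet. Genotype and diet change together, so their effects cannot be told apart, and the labels give neither age nor sex nor what drives the allele. The series text gives 3 animals for each group, and nothing else in the labels says that the libraries came from separate animals. The p-values therefore measure the spread between these libraries.

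Glutathione is a small thiol that cells build from glutamate, cysteine and glycine. Glutathione peroxidases use it to reduce peroxides, glutathione S-transferases couple it to reactive compounds such as lipid aldehydes, and glutathione reductase returns its oxidised form to use with NADPH. Superoxide dismutases turn superoxide into hydrogen peroxide, which catalase, the peroxidases and the largely thioredoxin-fed peroxiredoxins remove. Brown fat burns fuel in mitochondria, a main site of superoxide formation, whereas white fat stores lipid. Many of these genes are known targets of the transcription factor NRF2, which binds the antioxidant response element.

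The libraries held 17408621 to 23514095 counts. The summed level of 10 brown adipocyte markers was 9450 to 18682 CPM (read counts scaled to a common library size with TMM factors over the 12 libraries) in BAT and 127 to 280.1 CPM in IWAT, so the depots carried their labels. Skeletal muscle markers (14 genes) summed to 631 to 74579 CPM in BAT WT-NC and 2410.0 to 18961 CPM in BAT KI-HFD, with the highest value in WT-NC replicate 2, against 36.8 to 1064 CPM in IWAT. Lymphocyte markers (12 genes) summed to 985 CPM in IWAT KI-HFD replicate 3 and to 7.25 to 52.4 CPM in the other IWAT libraries. The summed level of 14 macrophage and monocyte markers was 423 to 1813 CPM in BAT WT-NC and 252 to 325 CPM in BAT KI-HFD. In bulk tissue, fewer cells of a type and less RNA per cell cannot be told apart.

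The core of the antioxidant response element, written TGACNNNGC, was searched on both strands of RefSeq promoter windows, which run from 250 bases before to 50 after each transcription start (GRCm38.p6). Of 58 windows for 44 of the 50 genes, 8 held the motif (13.8%), against 4071 of 32851 windows of all genes (12.4%). Gclc, Gsr, Gsta4, Gstt2, Prdx6 and Sod3 had no window and were not searched. The matches lay in the windows of Prdx1, Sod1, Txnrd1, Gclm, Mgst1, Gsta3, Gstm5 and Gstm7. They are shown because NRF2 is the best known regulator of these enzyme families, with the motif in capitals, 10 bases on either side in lower case, and each written 5′ to 3′ on the strand on which the motif reads forward.
Prdx1 (chr4:116685456-116685484, minus strand): ctacgggggaTGACTCAGCgctttccctg
Sod1 (chr16:90220696-90220724, minus strand): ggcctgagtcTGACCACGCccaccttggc
Txnrd1 (chr10:82859104-82859132, minus strand): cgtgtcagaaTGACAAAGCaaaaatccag
Gclm (chr3:122245413-122245441, minus strand): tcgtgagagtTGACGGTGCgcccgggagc
Mgst1 (chr6:138140461-138140489, minus strand): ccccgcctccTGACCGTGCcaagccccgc
Gsta3 (chr1:21240454-21240482, plus strand): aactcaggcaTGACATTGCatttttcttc
Gstm5 (chr3:107895802-107895830, plus strand): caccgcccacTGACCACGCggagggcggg
Gstm7 (chr3:107931725-107931753, minus strand): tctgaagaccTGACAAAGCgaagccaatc
A match is a description of the letters and not a binding site. The share among these enzyme genes lay close to that of all promoters.

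All 50 genes together took 0.899 to 1.16% of counts in BAT WT-NC, 1.20 to 1.26% in BAT KI-HFD, 0.854 to 0.999% in IWAT WT-NC and 0.917 to 1.10% in IWAT KI-HFD. The glutathione peroxidases took the most reads in BAT. Their summed level was 2994, 3002 and 3189 CPM in BAT WT-NC and 5417, 5464 and 4830 CPM in BAT KI-HFD, and 1334, 1456 and 1168 CPM in IWAT WT-NC and 2073, 2785 and 1607 CPM in IWAT KI-HFD. The KI-HFD libraries thus lay above the WT-NC libraries in each depot, without overlap. Without Gpx3 the class summed to 1850 to 1893 CPM in BAT WT-NC and 1972 to 2454 CPM in BAT KI-HFD, and to 1007 to 1221 and 1079.7 to 1603 CPM in IWAT. Gpx3 alone supplied 37.1 to 40.7% of the class's reads in BAT WT-NC and 52.3 to 63.6% in BAT KI-HFD. In IWAT its share was 12.3 to 16.2% in WT-NC and 25.4 to 42.4% in KI-HFD. These sums are descriptions, with no test.

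**Figure D1:**
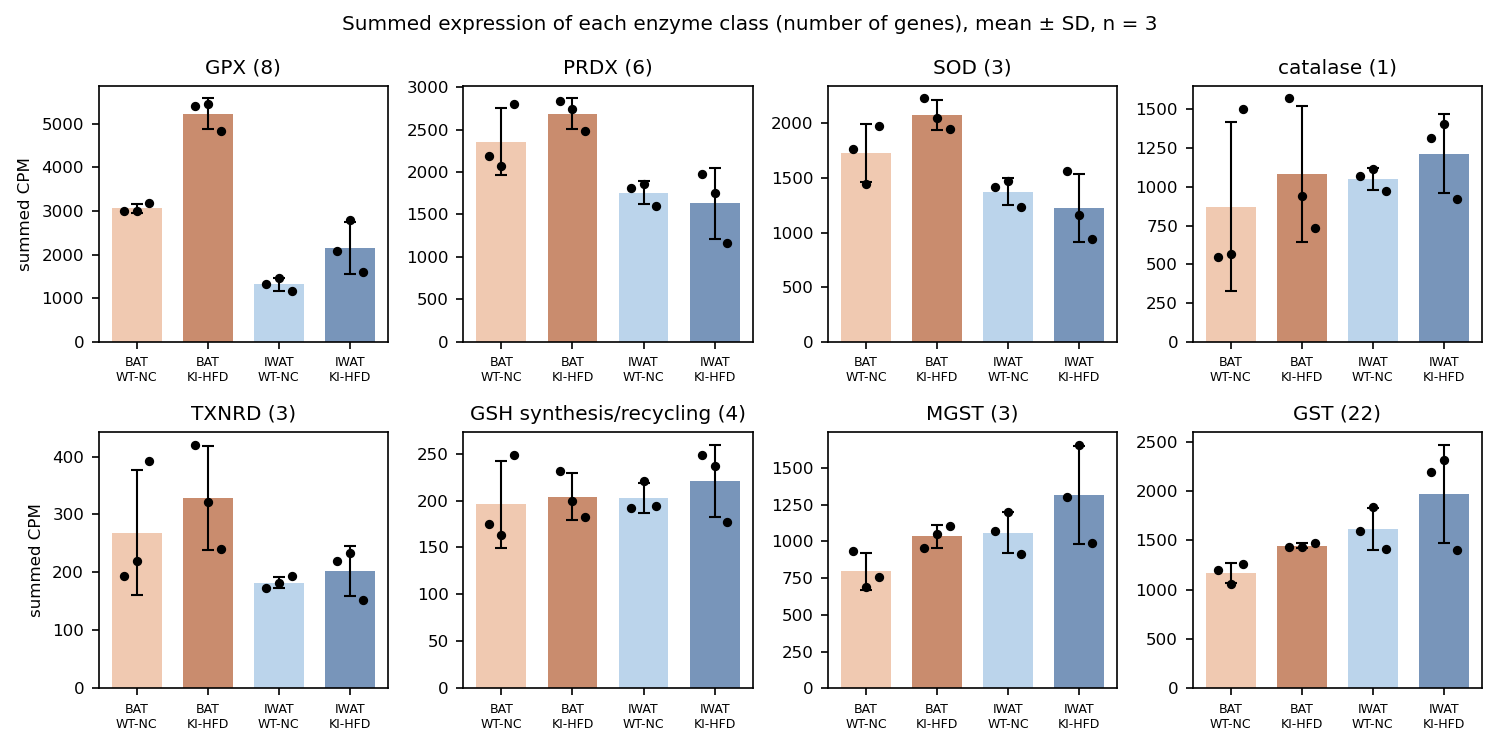
Summed CPM of each enzyme class in each group (bars: mean, error bars: SD, points: the 3 libraries; number of genes in brackets). The glutathione peroxidase sum was 3062 ± 111 CPM in BAT WT-NC and 5237 ± 354 CPM in BAT KI-HFD, while the sums for glutathione synthesis and recycling overlapped between all groups.

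Per kilobase of the union of exons, Gpx3 was the most highly expressed member, at 705 RPKM averaged over the 12 libraries, followed by Gpx1 at 595, Mgst1 at 436, Gpx4 at 436, Cat at 404, Prdx3 at 262, Sod3 at 208 and Gstm1 at 198 RPKM. With the principal transcript as the length Gpx4 stood above Mgst1, and Gstz1 moved from rank 13 to rank 6. With the union of exons as the length, the order differed between the depots. In BAT WT-NC Gpx3 ranked 1, Gpx4 2 and Gpx1 3, and in IWAT WT-NC Gpx1 ranked 1, Mgst1 2, Cat 3 and Sod3 4, with Gpx3 at rank 12. With principal transcripts Gpx4 ranked 1, Gpx1 2 and Gpx3 3 in BAT WT-NC, and Mgst1 1, Gpx1 2, Gstz1 3 and Cat 4 in IWAT WT-NC, with Sod3 at rank 7 and Gpx3 at rank 13. At the other end, Gpx2 and Gpx6 had 0 counts in every library, which allows at most 0.0118 CPM over the 12 libraries together. Gsta1, Gsta2, Gstm3 and Gpx5 had 1 to 3 counts in all, and Gstt4 had 26. Gsta1 shares 89.7% and Gsta2 64.2% of the 50-base stretches of their principal transcripts with other genes, so reads that match several genes may be missing from their counts. These 7 genes fell under the minimum count and were not tested. A further gene, Gstp3, was tested in all comparisons but that within IWAT.

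Brown fat had higher levels of Gpx3, Gpx4, Sod2, Prdx3, Txnrd2 and Gsta4 than inguinal fat and lower levels of Gsta3, Gstz1, Gstt1 and Gpx7, in WT-NC and in KI-HFD alike. Within WT-NC, edgeR's quasi-likelihood test called 20 of 43 tested members at an adjusted p under 0.05, against 26.8% of all genes tested. BAT was higher for 14 of them (32.6% of the tested members, against 14.2% of all genes) and lower for 6 (14.0% against 12.6%). Within KI-HFD, 28 of 43 members were called, against 34.7% of all genes. There BAT was higher for 17 (39.5% against 16.8%) and lower for 11 (25.6% against 17.9%). Of these, 12 members were higher and 6 lower in BAT under both conditions. The matching share of all genes was not computed, so these counts are a description. The median log2 fold change of BAT over IWAT over the tested members was 0.22 in WT-NC and 0.07 in KI-HFD, against 0.00 and -0.04 for all genes.

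The count within WT-NC fell to 11 members without IWAT replicate 1 or without IWAT replicate 3, to 10 with the number in each table's name as a block, and the count within KI-HFD to 14 without BAT replicate 2. Scaling by library totals moved the median of all genes by -0.22 in WT-NC and -0.30 in KI-HFD and gave 13 members higher and 9 lower (1806 and 3408 genes) in WT-NC and 13 and 13 members (1978 and 3947 genes) in KI-HFD. Every called member kept its direction under all 16 alternatives, and 10 of the 20 and 14 of the 28 kept the call in all of them. Gpx3, Gpx4, Sod2, Prdx3, Txnrd2, Gsta4 and Gsto2 kept it in all of them in both conditions. Gsta3, Gstm2, Gstt1, Gstz1, Gpx7 and Prdx4, the members lower in BAT under both conditions, each lost it in some. Gstp2, higher in BAT under both, kept its KI-HFD call in 3 of 16. The brown adipocyte and muscle markers given above moved with the depot, as did 8 of 10 white adipocyte markers and 7 and 8 of 8 fibroblast and progenitor markers, which were lower in BAT. Their part in the depot differences was not tested.

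**Figure D2:**
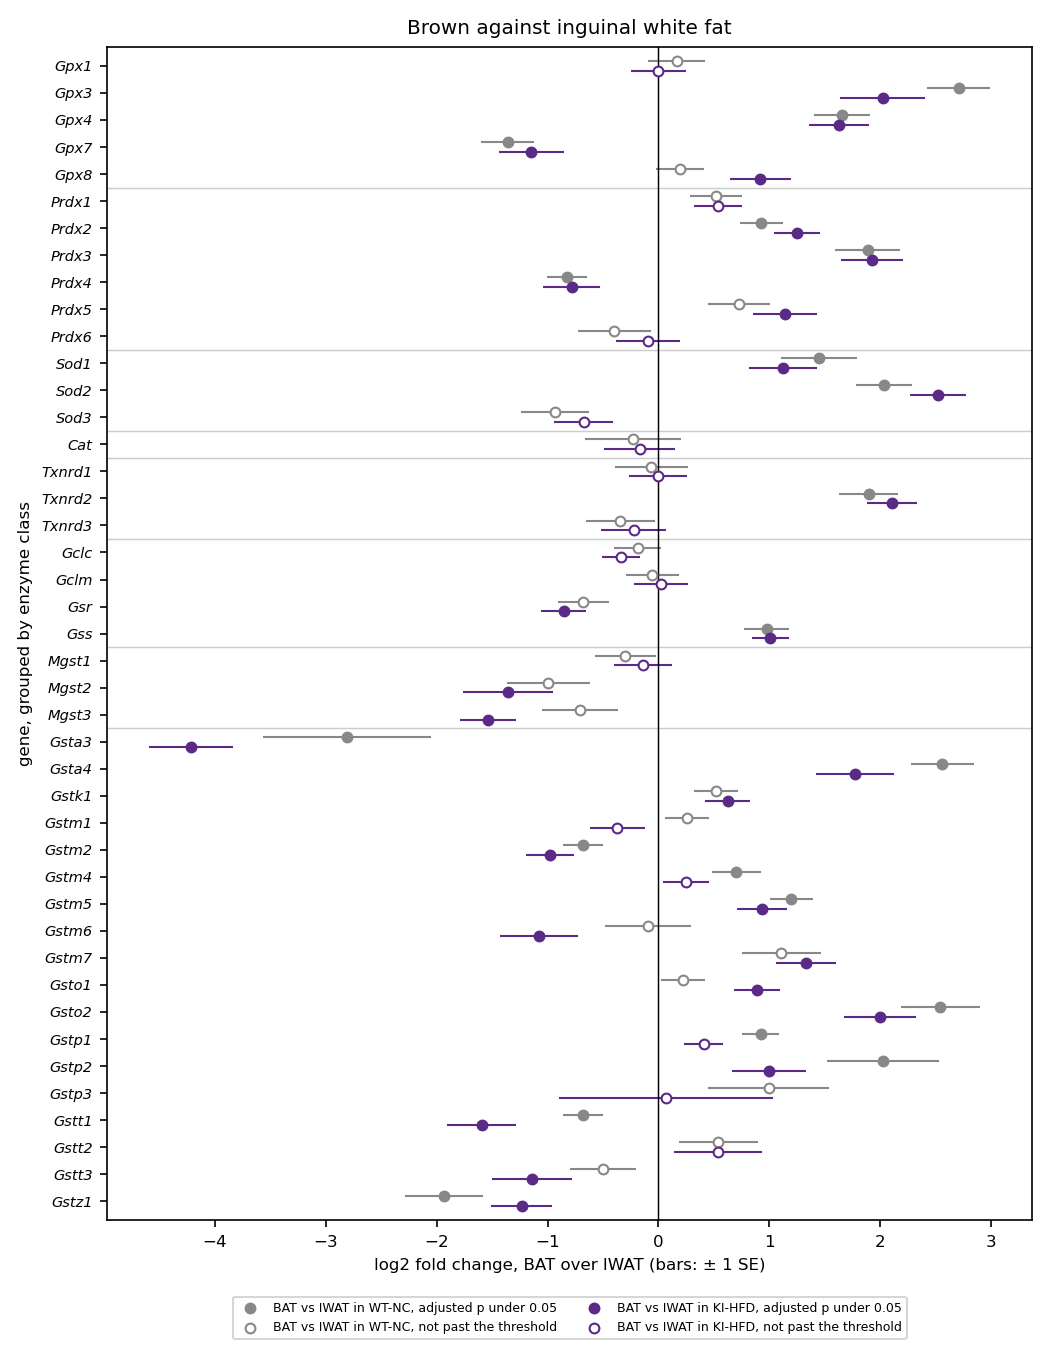
Log2 fold change of BAT over IWAT for each tested member (points, with bars of 1 SE) within WT-NC (grey) and within KI-HFD (purple), grouped by enzyme class, with filled points for an edgeR adjusted p under 0.05. Gpx3, Sod2, Prdx3 and Txnrd2 lie at the right under both conditions and Gsta3 farthest to the left, at -2.81 and -4.21.

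Among the glutathione peroxidases, Gpx3 and Gpx4 were higher in BAT and Gpx7 was lower. Gpx3, the secreted form of plasma (GRCm38 chromosome 11, 54902453 to 54910377, plus strand), stood at 1144, 1115 and 1297 CPM in BAT WT-NC, 3445, 3010.4 and 2528 in BAT KI-HFD, 164, 236 and 161 in IWAT WT-NC and 527, 1182 and 528 in IWAT KI-HFD. In each condition the BAT libraries lay above the IWAT libraries, although IWAT KI-HFD replicate 2 fell within the range of BAT WT-NC. The log2 fold change of BAT over IWAT was 2.70 in WT-NC (SE 0.28, edgeR adjusted p = 0.000776) and 2.02 in KI-HFD (SE 0.38, adjusted p = 0.00398). Gpx4, which reduces lipid peroxides within membranes and guards against ferroptosis, stood at 1123, 1020.4 and 947 CPM in BAT WT-NC, 1060.5, 1384 and 1269 in BAT KI-HFD, 343, 377 and 286 in IWAT WT-NC and 453, 467 and 296 in IWAT KI-HFD. All 6 BAT libraries lay above all 6 IWAT libraries. Between the depots, the log2 fold change of BAT over IWAT was 1.66 in WT-NC (SE 0.25, edgeR adjusted p = 0.00342) and 1.63 in KI-HFD (SE 0.27, adjusted p = 0.00219). Of the 50-base stretches of its principal transcript, 68.9% also occur in other genes, among them the pseudogene Gpx4-ps2, so its level is uncertain. Gpx7, an endoplasmic reticulum form, stood at 10.2, 10.8 and 16.7 CPM in BAT WT-NC, 9.29, 8.49 and 14.4 in BAT KI-HFD, 34.5, 33.1 and 31.7 in IWAT WT-NC and 27.8, 27.1 and 17.5 in IWAT KI-HFD. All BAT libraries lay below all IWAT libraries. The log2 fold change was -1.36 in WT-NC (SE 0.24, edgeR adjusted p = 0.00602) and -1.15 in KI-HFD (SE 0.29, adjusted p = 0.0162), and in WT-NC the adjusted p was 0.0501 with the number in the table's name as a block. Its call in KI-HFD was lost without BAT replicate 2 or without IWAT replicate 1. Gpx1, the widespread cytosolic and mitochondrial form, stood at 681, 832 and 905 CPM in BAT WT-NC, 849.6, 1003 and 952 in BAT KI-HFD, 766, 785 and 665 in IWAT WT-NC and 1034, 1064 and 747 in IWAT KI-HFD. The depots overlapped, with log2 fold changes of 0.16 in WT-NC (SE 0.26, edgeR adjusted p = 0.664) and -0.0039 in KI-HFD (SE 0.25, adjusted p = 0.992).

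Of the 6 peroxiredoxins, Prdx2 and Prdx3 were higher and Prdx4 lower in BAT under both conditions. Prdx3, the mitochondrial peroxiredoxin, stood at 403, 455 and 745 CPM in BAT WT-NC, 854, 692 and 515 in BAT KI-HFD, 142, 163 and 141 in IWAT WT-NC and 171, 239 and 134 in IWAT KI-HFD. Every BAT library lay above every IWAT library. The difference of BAT from IWAT on the log2 scale was 1.89 in WT-NC (SE 0.29, edgeR adjusted p = 0.00364) and 1.93 in KI-HFD (SE 0.28, adjusted p = 0.00112). Prdx2, a cytosolic form abundant in red cells, stood at 272, 218 and 204 CPM in BAT WT-NC, 257, 298 and 303 in BAT KI-HFD, 121, 131 and 122 in IWAT WT-NC and 132, 138 and 94.3 in IWAT KI-HFD. The depots did not overlap. The depots thus differed by a log2 fold change of 0.93 in WT-NC (SE 0.20, edgeR adjusted p = 0.0121) and 1.25 in KI-HFD (SE 0.21, adjusted p = 0.00226), and the call in WT-NC was lost without IWAT replicate 1 (adjusted p 0.0654) or replicate 3 (0.0612) and with the number in the table's name as a block (0.0829). Of the 50-base stretches of the Prdx2 principal transcript, 23.8% also occur in other genes. Its exons overlap those of Junb and Rnaseh2a on the opposite strand. Erythroid markers (7 genes) summed to 66.4 to 1005 CPM in BAT and 65.5 to 599.5 CPM in IWAT, and 0 of them were called between the depots. Their median log2 fold change of BAT over IWAT was 0.98 in WT-NC and, over the 6 tested, 1.35 in KI-HFD. The part of red cells in the Prdx2 difference was not tested. Prdx5, found in mitochondria, peroxisomes and cytosol, stood at 565, 381 and 329 CPM in BAT WT-NC, 395, 545 and 620.3 in BAT KI-HFD, 280.0, 295 and 214 in IWAT WT-NC and 317, 226 and 178 in IWAT KI-HFD. The depots did not overlap, and BAT was higher by the test in KI-HFD but did not pass in WT-NC, with log2 fold changes of 0.73 in WT-NC (SE 0.28, edgeR adjusted p = 0.0871) and 1.14 in KI-HFD (SE 0.29, adjusted p = 0.0156). Its exons overlap those of Trmt112 on the opposite strand, and the libraries do not mark strand. Prdx4, the secretory pathway form, gave log2 fold changes of -0.82 in WT-NC (SE 0.18, edgeR adjusted p = 0.0147) and -0.78 in KI-HFD (SE 0.26, adjusted p = 0.0459). Prdx1 and Prdx6 did not pass in either condition, with Prdx1 at 504 to 674 CPM in BAT and 315 to 438 CPM in IWAT.

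Of the superoxide dismutases, Sod1 and Sod2 were higher in BAT and Sod3 did not pass. Sod2, the manganese enzyme of mitochondria, stood at 1104, 954 and 1202 CPM in BAT WT-NC, 1478, 1422 and 1277 in BAT KI-HFD, 281, 283 and 256 in IWAT WT-NC and 283, 263 and 187 in IWAT KI-HFD. The lowest BAT library lay above the highest IWAT library by a wide margin. BAT minus IWAT on the log2 scale came to 2.03 in WT-NC (SE 0.25, edgeR adjusted p = 0.00145) and 2.52 in KI-HFD (SE 0.25, adjusted p = 0.000259). Sod1, the copper and zinc enzyme of the cytosol, was also higher in BAT, with log2 fold changes of 1.45 in WT-NC (SE 0.34, edgeR adjusted p = 0.0187) and 1.12 in KI-HFD (SE 0.31, adjusted p = 0.0216). Its levels spread from 52.5 to 147 CPM over the BAT libraries, and 23.1% of the 50-base stretches of its principal transcript also occur in Gm8566. Sod3, the extracellular enzyme, stood at 517, 391 and 718 CPM in BAT WT-NC, 686, 516 and 537 in BAT KI-HFD, 1099, 1145 and 948 in IWAT WT-NC and 1241, 836 and 716 in IWAT KI-HFD. Within each condition the BAT libraries lay below the IWAT libraries. The log2 fold changes of BAT over IWAT were -0.93 in WT-NC (SE 0.31, edgeR adjusted p = 0.0564) and -0.68 in KI-HFD (SE 0.27, adjusted p = 0.0845) and did not pass.

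Txnrd2, the thioredoxin reductase of mitochondria, stood at 111, 111 and 197 CPM in BAT WT-NC, 199, 186 and 131 in BAT KI-HFD, 39.0, 39.8 and 37.2 in IWAT WT-NC and 39.3, 50.4 and 30.9 in IWAT KI-HFD. The depots did not overlap. The log2 fold change was 1.89 in WT-NC (SE 0.26, edgeR adjusted p = 0.00225) and 2.10 in KI-HFD (SE 0.23, adjusted p = 0.000319). Txnrd1, its cytosolic counterpart, stood at 63.5, 92.9 and 162 CPM in BAT WT-NC, 176, 106 and 86.5 in BAT KI-HFD, 109, 105 and 128 in IWAT WT-NC and 145, 128 and 95.3 in IWAT KI-HFD. BAT and IWAT overlapped, with log2 fold changes of -0.07 in WT-NC (SE 0.33, edgeR adjusted p = 0.896) and -0.0017 in KI-HFD (SE 0.26, adjusted p = 0.997). Catalase, the peroxisomal enzyme that splits hydrogen peroxide, stood at 545, 569 and 1503 CPM in BAT WT-NC, 1573, 940.3 and 734 in BAT KI-HFD, 1070.0, 1113 and 971 in IWAT WT-NC and 1315, 1404 and 923 in IWAT KI-HFD. Its BAT libraries ranged widely within each group, and the log2 fold changes were -0.23 in WT-NC (SE 0.43, edgeR adjusted p = 0.723) and -0.17 in KI-HFD (SE 0.32, adjusted p = 0.726). The 95% intervals of these catalase differences ran from -1.08 to 0.62 in WT-NC and from -0.79 to 0.46 in KI-HFD.

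In glutathione synthesis and recycling, Gss was higher in BAT and Gsr lower by the test in KI-HFD. Gss, glutathione synthetase, which adds glycine in the last step, stood at 68.5, 53.0 and 79.7 CPM in BAT WT-NC, 75.0, 69.8 and 63.3 in BAT KI-HFD, 34.6, 39.8 and 30.9 in IWAT WT-NC and 38.6, 37.3 and 28.3 in IWAT KI-HFD. All BAT libraries lay above all IWAT libraries. The log2 fold change of BAT over IWAT was 0.97 in WT-NC (SE 0.21, edgeR adjusted p = 0.0122) and 1.01 in KI-HFD (SE 0.17, adjusted p = 0.00211). Of the Gss exon bases, 15.4% overlap genes on the opposite strand, Acss2 among them, and the libraries do not mark strand. Gsr, glutathione reductase, stood at 34.5, 41.1 and 61.1 CPM in BAT WT-NC, 66.9, 46.1 and 45.5 in BAT KI-HFD, 72.8, 75.7 and 76.2 in IWAT WT-NC and 101, 113 and 73.6 in IWAT KI-HFD. All BAT libraries lay below all IWAT libraries. Between the depots, the log2 fold change of BAT over IWAT was -0.68 in WT-NC (SE 0.23, edgeR adjusted p = 0.0631) and -0.86 in KI-HFD (SE 0.20, adjusted p = 0.0122). Gclc, the catalytic subunit of the rate-limiting ligase, stood at 30.5, 28.1 and 38.6 CPM in BAT WT-NC, 36.6, 29.3 and 31.4 in BAT KI-HFD, 35.0, 46.0 and 33.0 in IWAT WT-NC and 42.0, 38.1 and 42.7 in IWAT KI-HFD. The depots overlapped in WT-NC, whereas in KI-HFD the BAT libraries lay below the IWAT libraries. Neither difference passed, with log2 fold changes of -0.19 in WT-NC (SE 0.21, edgeR adjusted p = 0.523) and -0.34 in KI-HFD (SE 0.17, adjusted p = 0.166). Its modifier subunit Gclm did not pass either, at 41.0 to 69.6 CPM in BAT and 32.7 to 67.5 CPM in IWAT.

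The membrane-bound Mgst enzymes had no member higher in BAT. Mgst3 stood at 138, 156 and 59.0 CPM in BAT WT-NC, 65.8, 88.1 and 93.7 in BAT KI-HFD, 189, 232 and 169 in IWAT WT-NC and 225, 319 and 185 in IWAT KI-HFD. All BAT libraries lay below all IWAT libraries. The difference of BAT from IWAT on the log2 scale was -0.71 in WT-NC (SE 0.35, edgeR adjusted p = 0.163) and -1.54 in KI-HFD (SE 0.25, adjusted p = 0.00216). The highest BAT values were in WT-NC replicates 1 and 2, which also had the highest muscle marker sums of the depot (21393 and 74579 CPM). The sum was 631 CPM in WT-NC replicate 3 and 18961, 13142 and 2410.0 CPM in KI-HFD replicates 1, 2 and 3. Within KI-HFD, Mgst3 was instead highest in replicate 3, where the sum was lowest. The part of muscle in these values was not tested. Mgst2 was lower in BAT by the test in KI-HFD but did not pass in WT-NC, with log2 fold changes of -0.99 in WT-NC (SE 0.37, edgeR adjusted p = 0.0823) and -1.36 in KI-HFD (SE 0.40, adjusted p = 0.0303). Mgst1, the most abundant of the 3, stood at 786, 525 and 692 CPM in BAT WT-NC, 879.8, 954 and 1002 in BAT KI-HFD, 859.9, 946 and 726 in IWAT WT-NC and 1068, 1315 and 786 in IWAT KI-HFD. The depots overlapped, with log2 fold changes of -0.30 in WT-NC (SE 0.27, edgeR adjusted p = 0.44) and -0.14 in KI-HFD (SE 0.26, adjusted p = 0.717).

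The glutathione S-transferases differed in both directions, with 6 of 18 tested higher and 4 lower in BAT in WT-NC and 7 higher and 6 lower in KI-HFD, against 14.2% and 12.6% of all genes in WT-NC and 16.8% and 17.9% in KI-HFD. Gsta4, an alpha-class enzyme specialised on lipid aldehydes such as hydroxynonenal, stood at 78.5, 48.7 and 65.4 CPM in BAT WT-NC, 97.7, 103 and 98.1 in BAT KI-HFD, 9.05, 15.4 and 9.26 in IWAT WT-NC and 15.9, 47.9 and 24.6 in IWAT KI-HFD. Every BAT library lay above every IWAT library, narrowly so between BAT WT-NC replicate 2 and IWAT KI-HFD replicate 2. The depots thus differed by a log2 fold change of 2.56 in WT-NC (SE 0.28, edgeR adjusted p = 0.000938) and 1.77 in KI-HFD (SE 0.35, adjusted p = 0.00517). Gsta3, an alpha-class relative known in mouse liver for detoxifying aflatoxin, stood at 2.62, 0.933 and 10.5 CPM in BAT WT-NC, 1.66, 2.26 and 3.94 in BAT KI-HFD, 27.6, 48.1 and 26.8 in IWAT WT-NC and 63.2, 48.6 and 37.4 in IWAT KI-HFD. It was the reverse of Gsta4, with all BAT libraries below all IWAT libraries. BAT minus IWAT on the log2 scale came to -2.81 in WT-NC (SE 0.76, edgeR adjusted p = 0.0289) and -4.21 in KI-HFD (SE 0.38, adjusted p = 0.000155), in KI-HFD an 18.6-fold lower level in BAT. In WT-NC its call was lost without BAT replicate 1, without any of the IWAT replicates and with the number in the table's name as a block.

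Gsto2, an omega-class enzyme that reduces dehydroascorbate, stood at 9.49, 7.98 and 7.69 CPM in BAT WT-NC, 11.5, 13.5 and 11.3 in BAT KI-HFD, 0.964, 2.08 and 1.40 in IWAT WT-NC and 3.42, 3.82 and 2.0017 in IWAT KI-HFD. The depots did not overlap. The log2 fold change of BAT over IWAT was 2.54 in WT-NC (SE 0.35, edgeR adjusted p = 0.00221) and 1.996 in KI-HFD (SE 0.32, adjusted p = 0.0019). Gstz1, the zeta-class enzyme of tyrosine breakdown, stood at 168, 135 and 303 CPM in BAT WT-NC, 416, 341 and 398 in BAT KI-HFD, 766, 920.0 and 698 in IWAT WT-NC and 996, 1163 and 592 in IWAT KI-HFD. IWAT lay above BAT in all libraries. Between the depots, the log2 fold change of BAT over IWAT was -1.93 in WT-NC (SE 0.35, edgeR adjusted p = 0.00707) and -1.23 in KI-HFD (SE 0.28, adjusted p = 0.00918). Without BAT replicate 2 its call in KI-HFD was lost. Of the Gstz1 exon bases, 12.2% overlap Pomt2 and Gm6566 on the opposite strand, and the libraries do not mark strand. Gstt1, a theta-class enzyme, stood at 41.1, 36.4 and 43.6 CPM in BAT WT-NC, 29.5, 32.8 and 39.7 in BAT KI-HFD, 61.7, 79.5 and 58.4 in IWAT WT-NC and 65.7, 155 and 91.2 in IWAT KI-HFD. IWAT again lay above BAT throughout. The difference of BAT from IWAT on the log2 scale was -0.68 in WT-NC (SE 0.18, edgeR adjusted p = 0.0282) and -1.59 in KI-HFD (SE 0.31, adjusted p = 0.00465). Its call in WT-NC was kept in 8 of 16 alternatives. Gstp1, the main pi-class enzyme, stood at 113, 121 and 102 CPM in BAT WT-NC, 92.6, 107 and 103 in BAT KI-HFD, 60.5, 65.4 and 56.4 in IWAT WT-NC and 74.8, 87.9 and 68.0 in IWAT KI-HFD. The depots did not overlap, and BAT was higher by the test in WT-NC. The depots thus differed by a log2 fold change of 0.92 in WT-NC (SE 0.17, edgeR adjusted p = 0.00664) and 0.41 in KI-HFD (SE 0.17, adjusted p = 0.102). Gstp1 shares 62.3% and Gstp2 72.6% of the 50-base stretches of their principal transcripts with each other or a pseudogene, so reads may have been lost or divided between them.

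The 7 mu-class genes lie within 149.1 kb on chromosome 3 (107895821 to 108044894), yet they did not move as 1 unit between the depots. Gstm5 was higher in BAT under both conditions. It stood at 55.3, 63.2 and 41.1 CPM in BAT WT-NC, 50.5, 61.9 and 53.4 in BAT KI-HFD, 23.0, 24.1 and 24.2 in IWAT WT-NC and 30.2, 37.4 and 20.5 in IWAT KI-HFD, with no overlap between the depots. BAT minus IWAT on the log2 scale came to 1.20 in WT-NC (SE 0.19, edgeR adjusted p = 0.00437) and 0.93 in KI-HFD (SE 0.22, adjusted p = 0.012). Of the Gstm5 exon bases, 13.9% overlap 4933431E20Rik on the opposite strand, and the libraries do not mark strand. Gstm2, of the same cluster, was lower in BAT under both conditions, at 60.6 to 88.3 CPM against 98.5 to 169 CPM in IWAT. The log2 fold changes of BAT over IWAT were -0.68 in WT-NC (SE 0.18, edgeR adjusted p = 0.0271) and -0.98 in KI-HFD (SE 0.22, adjusted p = 0.00894), and the call in WT-NC was lost in 7 of 16 alternatives. Gstm7 was higher in BAT by the test in KI-HFD, with log2 fold changes of 1.11 in WT-NC (SE 0.36, edgeR adjusted p = 0.0531) and 1.33 in KI-HFD (SE 0.27, adjusted p = 0.00567). Gstm1, the most abundant of the cluster, passed in neither condition, with log2 fold changes of 0.26 in WT-NC (SE 0.20, edgeR adjusted p = 0.356) and -0.37 in KI-HFD (SE 0.25, adjusted p = 0.288). A difference between conditions in which members pass does not show that the depot difference changed, which is tested as an interaction further on.

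**Figure D3:**
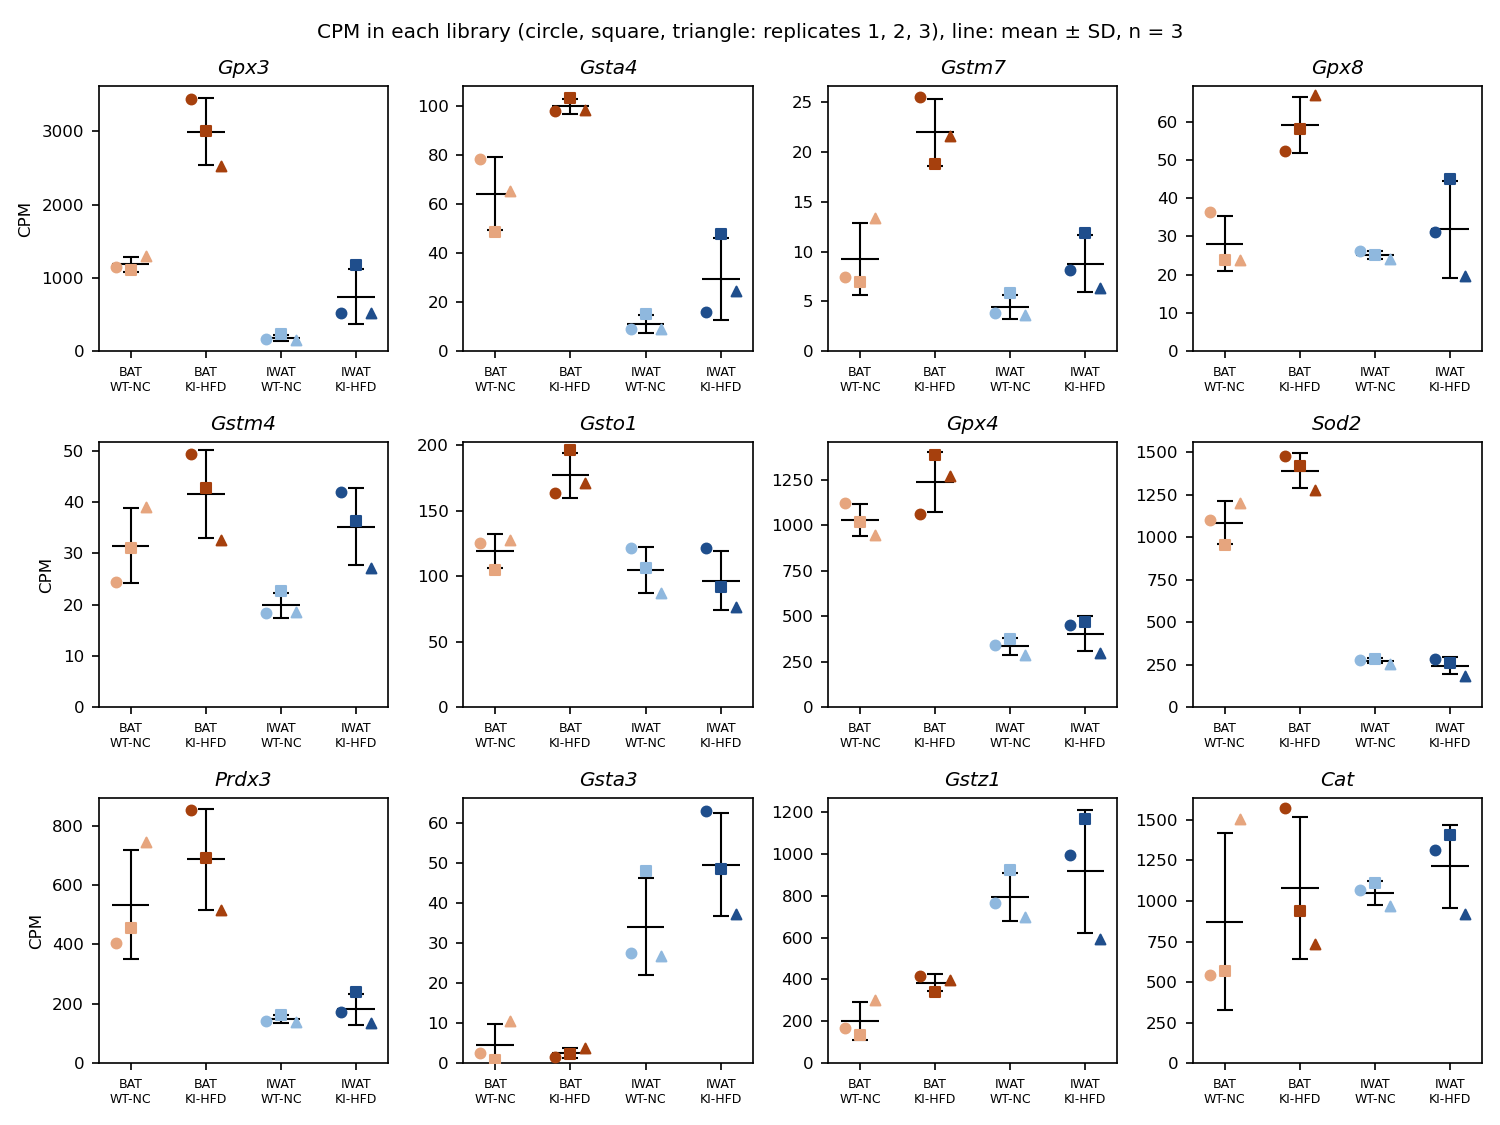
CPM of 12 members in each library (circles, squares and triangles: replicates 1, 2 and 3), with the mean and SD of each group (n = 3) and axes that start at 0. Gpx4, Sod2 and Prdx3 separate BAT from IWAT, Gsta3 and Gstz1 do so in reverse, and the KI-HFD libraries of Gpx3 lie above those of WT-NC in both depots.

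The comparison of KI-HFD with WT-NC asks how these enzymes stand in the fat of the Adv-CGRPalpha+/- mice on the high-fat diet. In BAT, edgeR called 0 of 43 tested members, against 0.0445% of all genes. At an unadjusted p under 0.05 stood 7 members, against 1244 of 15726 genes. DESeq2 called 3 members, all higher in KI-HFD (Gpx3, Gpx8 and Gstm7), against 1.71% of all genes, and limma-voom called 0. All 3 KI-HFD libraries lay above all 3 WT-NC libraries for 10 members (23.3%), against 6.44% of all genes, and below them for 2 (4.65%), against 6.71%. The 10 were Gpx3, Gpx8, Gsta4, Gstk1, Gstm7, Gsto1, Gsto2, Gstz1, Mgst1 and Sod2, and the 2 were Gstm1 and Gstm2. The median log2 fold change of the tested members was 0.21, against 0.00 for all genes, and 29 of 43 were above 0, against 50.5% of all genes.

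Gpx3 had 1144, 1115 and 1297 CPM in BAT WT-NC and 3445, 3010.4 and 2528 CPM in BAT KI-HFD. Its KI-HFD libraries lay wholly above, and the log2 fold change was 1.34 (edgeR, SE 0.30, adjusted p = 0.284), with a 95% interval from 0.74 to 1.93. DESeq2 gave an adjusted p under 0.05 for it, and the authors' deposited table gives 1.23 (adjusted p = 7.43e-05). That table covers the same libraries, and the submitters name DESeq2, so it is not evidence separate from the DESeq2 run. How its fold changes were estimated is not given, so they may not be a measure like edgeR's. Gpx8, an endoplasmic reticulum peroxidase, stood at 36.4, 23.9 and 24.0 CPM in BAT WT-NC, 52.3, 58.0 and 66.9 in BAT KI-HFD, 26.2, 25.1 and 24.2 in IWAT WT-NC and 31.2, 45.0 and 19.6 in IWAT KI-HFD. BAT KI-HFD lay above every other library of either depot. For Gpx8 in BAT the log2 fold change came to 1.08 (edgeR, SE 0.24, adjusted p = 0.284), and the authors' deposited table gives 0.97 (adjusted p = 0.0258). Gstm7 stood at 7.45, 6.95 and 13.4 CPM in BAT WT-NC, 25.5, 18.8 and 21.6 in BAT KI-HFD, 3.82, 5.86 and 3.62 in IWAT WT-NC and 8.17, 11.9 and 6.31 in IWAT KI-HFD. BAT KI-HFD was again the highest group, without overlap. For Gstm7 in BAT the log2 fold change came to 1.24 (edgeR, SE 0.31, adjusted p = 0.341), and the authors' deposited table gives 1.07 (adjusted p = 0.0448).

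Gstk1, the kappa-class enzyme of mitochondria and peroxisomes, stood at 66.8, 58.6 and 63.3 CPM in BAT WT-NC, 91.3, 92.0 and 90.3 in BAT KI-HFD, 41.5, 56.7 and 37.2 in IWAT WT-NC and 54.4, 78.9 and 46.2 in IWAT KI-HFD. The 3 BAT KI-HFD libraries lay close together and above WT-NC. For Gstk1 in BAT the log2 fold change came to 0.54 (edgeR, SE 0.18, adjusted p = 0.495). Gsta4, whose levels are given above, came to a log2 fold change of 0.64 (edgeR, SE 0.23, adjusted p = 0.526) in BAT. None of these 5 genes, those with the lowest p among the members, passed with edgeR. Beside them, the macrophage and monocyte sum was 252 to 325 CPM in BAT KI-HFD and 423 to 1813 CPM in BAT WT-NC, and the brown adipocyte sum 16144 to 18682 and 9450 to 12599.9 CPM. The part of these cell types in the values was not tested. Without BAT WT-NC replicate 2, the library with the most muscle signal, the log2 fold changes were 1.30 for Gpx3, 0.97 for Gpx8 and 1.07 for Gstm7.

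In IWAT, edgeR called 0 of 42 tested members, against 0% of all genes. At an unadjusted p under 0.05 stood 9 members, against 1730 of 15881 genes. DESeq2 called 3, all higher in KI-HFD (Gpx3, Gstm4 and Gsta4), against 2.15% of all genes, and limma-voom called 0. All KI-HFD libraries lay above all WT-NC libraries for 6 members (14.3%), against 7.8% of all genes, and below them for 1 (2.38%), against 7.78%. The 6 were Gpx3, Gsta4, Gstm4, Gstm6, Gstm7 and Gstp1, and the 1 was Gpx7. The median log2 fold change was 0.27 over the members and 0.04 over all genes, and 29 of 42 members were above 0, against 55.0% of all genes.

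Gpx3 had 164, 236 and 161 CPM in IWAT WT-NC and 527, 1182 and 528 CPM in IWAT KI-HFD. The groups did not overlap, and replicate 2 stood above its fellows. The log2 fold change was 1.98 (edgeR, SE 0.34, adjusted p = 0.204), with a 95% interval from 1.31 to 2.65, and it was 1.504 without KI-HFD replicate 2. With no filter on low counts edgeR called it (adjusted p 0.0143), and the authors' deposited table gives 1.66 (adjusted p = 2.01e-07). Gstm4 stood at 24.3, 31.0 and 38.9 CPM in BAT WT-NC, 49.4, 42.7 and 32.5 in BAT KI-HFD, 18.3, 22.7 and 18.6 in IWAT WT-NC and 42.0, 36.3 and 27.2 in IWAT KI-HFD. The IWAT groups did not overlap, whereas the BAT groups did. For Gstm4 in IWAT the log2 fold change came to 0.81 (edgeR, SE 0.17, adjusted p = 0.247), and the authors' deposited table gives 0.74 (adjusted p = 0.0168). Gsta4 had 9.05, 15.4 and 9.26 CPM in IWAT WT-NC and 15.9, 47.9 and 24.6 CPM in IWAT KI-HFD. The groups were separated by a narrow gap and replicate 2 was again the highest. Its log2 fold change was 1.38 (edgeR, SE 0.41, adjusted p = 0.347), it was 0.87 without KI-HFD replicate 2, and the authors' deposited table gives 1.07 (adjusted p = 0.0212).

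Gstm6 stood at 5.30, 2.05 and 3.91 CPM in BAT WT-NC, 4.68, 3.01 and 3.02 in BAT KI-HFD, 3.97, 4.63 and 3.70 in IWAT WT-NC and 10.1, 6.64 and 5.85 in IWAT KI-HFD. IWAT KI-HFD lay above the other libraries. For Gstm6 in IWAT the log2 fold change came to 0.86 (edgeR, SE 0.28, adjusted p = 0.371). Gstm7 came to a log2 fold change of 0.97 (edgeR, SE 0.31, adjusted p = 0.371) in IWAT. With edgeR these 5 genes did not pass the threshold. Of the mu-class cluster, Gstm4, Gstm6 and Gstm7 were thus the members without overlap between the IWAT groups, and Gstm7 alone among them was so in BAT too. Without KI-HFD replicate 3, the library with the lymphocyte signal, the log2 fold changes were 2.15 for Gpx3, 0.93 for Gstm4, 1.46 for Gsta4, 0.98 for Gstm6 and 1.13 for Gstm7, and their edgeR adjusted p ran from 0.0967 to 0.212. Other cell markers moved with the IWAT groups. Endothelial markers (8 genes) summed to 1173 to 1719 CPM in WT-NC and 506 to 1045 CPM in KI-HFD, and smooth muscle and pericyte markers (6 genes) to 702 to 855 and 270.0 to 693 CPM, without overlap. KI-HFD replicate 2, the highest library for Gpx3, Gsta4 and Gstm7, had the lowest endothelial sum (506 CPM) and the highest white adipocyte (67704 CPM) and brown adipocyte (280.1 CPM) sums of the depot. Their part in these values was not tested.

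**Figure D4:**
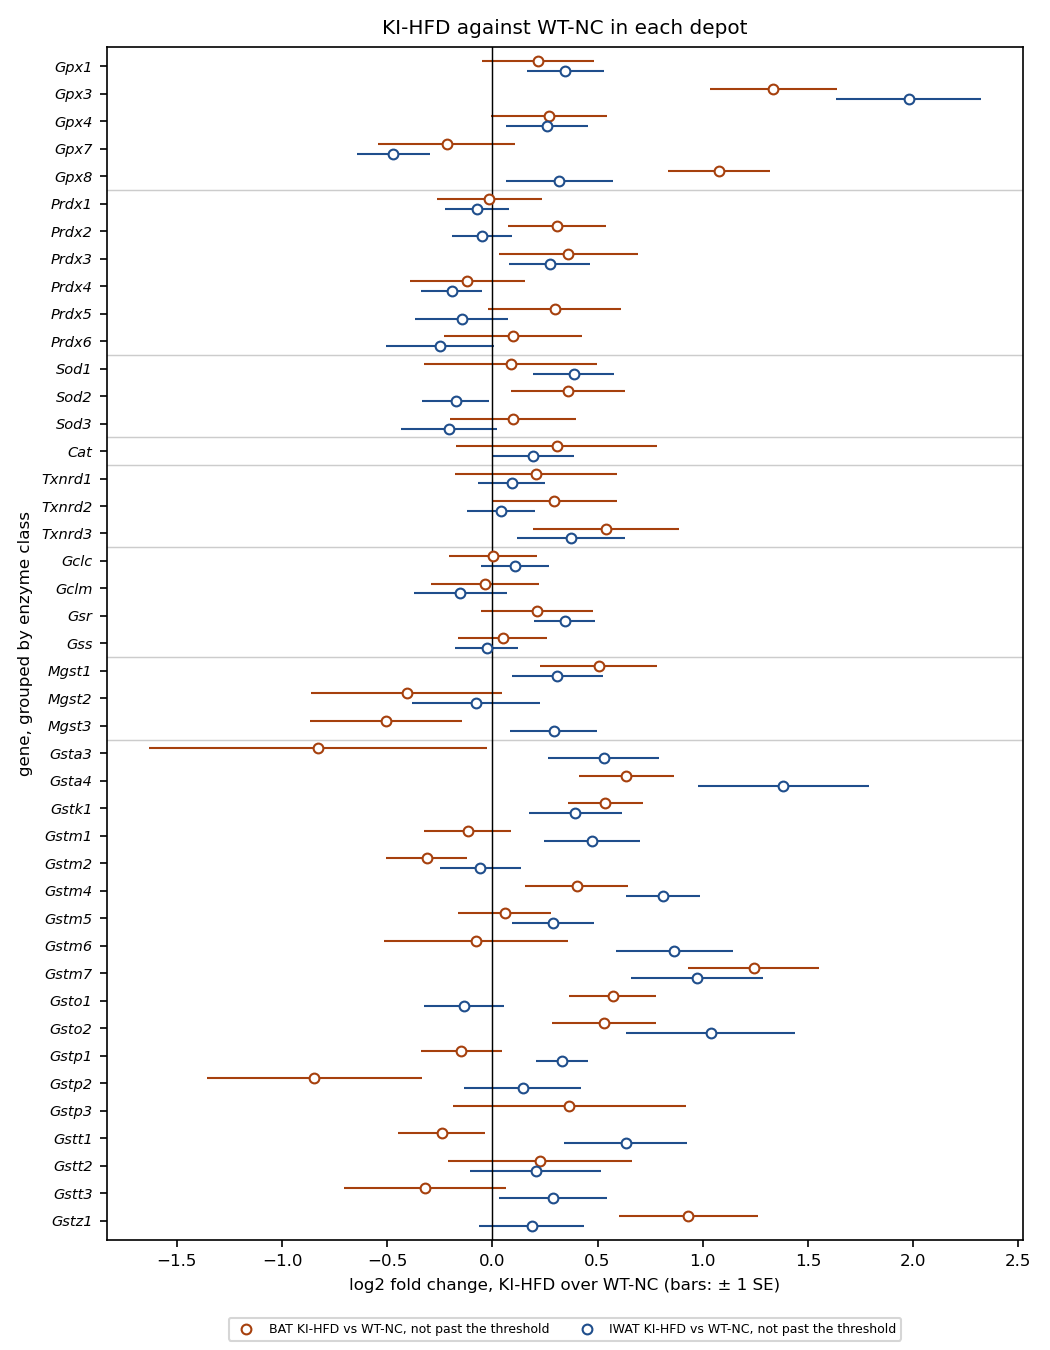
Log2 fold change of KI-HFD over WT-NC for each tested member (points, with bars of 1 SE) in BAT (brown) and IWAT (blue), grouped by enzyme class, with open points since none had an edgeR adjusted p under 0.05. Gpx3 lies farthest to the right in both depots, at 1.34 and 1.98.

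Of 42 members tested in both depots, 3 had KI-HFD wholly above WT-NC in each depot, against 0.86% of the 14654 genes tested in both. They were Gpx3, Gsta4 and Gstm7. None was wholly below in both. For Gclc, of glutathione synthesis, the log2 fold changes were 0.0016 (edgeR, SE 0.21, adjusted p = 0.999) in BAT and 0.11 (edgeR, SE 0.16, adjusted p = 0.847) in IWAT. For Gclm they were -0.03 (edgeR, SE 0.26, adjusted p = 0.985) and -0.15 (edgeR, SE 0.22, adjusted p = 0.841). The 95% interval of the Gclc difference ran from -0.41 to 0.41 in BAT and from -0.21 to 0.43 in IWAT.

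Whether KI-HFD and WT-NC differ in another way in BAT than in IWAT was tested as an interaction over all 12 libraries. It called 0 of 43 members, against 0% of all genes, with 4 members and 831 genes at an unadjusted p under 0.05. DESeq2 called 28 genes and 0 members, and limma-voom 0 genes. The lowest p values belonged to Gsto1, Gstt1, Gstp1, Gpx8 and Gstm1. Gsto1, an omega-class enzyme, stood at 126, 105 and 128 CPM in BAT WT-NC, 164, 197 and 171 in BAT KI-HFD, 122, 107 and 86.9 in IWAT WT-NC and 121, 92.2 and 76.7 in IWAT KI-HFD. It lay higher in KI-HFD in BAT without overlap, and overlapped in IWAT. Its interaction, the log2 fold change in BAT minus that in IWAT, was 0.72 (edgeR, SE 0.28, adjusted p = 1.00). For Gstt1 the interaction was -0.86 (edgeR, SE 0.38, adjusted p = 1.00). For Gpx8 it was 0.78 (edgeR, SE 0.36, adjusted p = 1.00) and for Gstp1 -0.46 (edgeR, SE 0.21, adjusted p = 1.00). Gstm1 stood at 298, 286 and 296 CPM in BAT WT-NC, 283, 262 and 266 in BAT KI-HFD, 261, 269 and 224 in IWAT WT-NC and 483, 326 and 250.1 in IWAT KI-HFD. Its WT-NC libraries lay above KI-HFD in BAT, and KI-HFD replicates 1 and 2 above WT-NC in IWAT, with an interaction of -0.58 (edgeR, SE 0.30, adjusted p = 1.00). A depot difference that passed in 1 condition alone, as for Gstp1, Prdx5, Gsr or Mgst3, is therefore not shown to differ between the conditions.

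Partners of these enzymes were followed in a list of 68 genes for thioredoxins and glutaredoxins, glutathione supply and turnover, NADPH supply, the NRF2 pathway, selenoprotein synthesis and sources of peroxide. Between KI-HFD and WT-NC, edgeR called 0 of 63 tested in BAT and 0 of 65 in IWAT. Between the depots it called 14 higher and 8 lower in BAT of 66 in WT-NC, and 16 higher and 13 lower of 62 in KI-HFD. Over all genes tested the shares were 14.2% higher and 12.6% lower in WT-NC and 16.8% and 17.9% in KI-HFD. The lower calls thus stood near the background in both conditions. With so few genes a list, the counts by list further on are descriptions to be read against the same shares. Those with the lowest p in WT-NC were all higher in BAT. Me3, the mitochondrial malic enzyme that makes NADPH, came to a log2 fold change of 4.27 (edgeR, SE 0.21, adjusted p = 0.000117). Txn2, the mitochondrial thioredoxin, had 1.86 (edgeR, SE 0.20, adjusted p = 0.000902). Tkt, transketolase of the pentose phosphate pathway, had 2.47 (edgeR, SE 0.32, adjusted p = 0.00167). Idh2, the NADPH-making isocitrate dehydrogenase of mitochondria, had 1.92 (edgeR, SE 0.33, adjusted p = 0.00573). The selenocysteine synthesis kinase gene Pstk had 1.28 (edgeR, SE 0.22, adjusted p = 0.00522), and the methionine sulfoxide reductase gene Msrb2 had 1.22 (edgeR, SE 0.20, adjusted p = 0.00447).

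In KI-HFD, Me3 had 5.72 (edgeR, SE 0.32, adjusted p = 4.21e-05), Txn2 1.92 (edgeR, SE 0.21, adjusted p = 0.000315) and Tkt 2.58 (edgeR, SE 0.32, adjusted p = 0.000563). Lower in BAT were Cth, whose enzyme makes cysteine, at -2.66 (edgeR, SE 0.28, adjusted p = 0.000302), and Ggt5, a gamma-glutamyl transferase gene, at -2.11 (edgeR, SE 0.28, adjusted p = 0.00075). Cybb, the catalytic subunit of the phagocyte NADPH oxidase, was lower too, at -2.44 (edgeR, SE 0.33, adjusted p = 0.000833), and 14 of 14 macrophage and monocyte markers were also lower in BAT in that comparison. Their part in it was not tested. By list, thioredoxin and glutaredoxin partners had 4 higher and 1 lower of 12 in WT-NC and 6 and 1 of 12 in KI-HFD. The NADPH list had 4 higher and 1 lower of 12 in WT-NC and 4 and 1 of 11 in KI-HFD. Glutathione supply and turnover had 3 higher and 4 lower of 14, and 3 and 5 of 13. The selenoprotein list had 3 higher and 1 lower of 11, and 3 and 1 of 10. In the NRF2 list 0 of 10 were higher in either condition, with 1 lower in WT-NC and 2 in KI-HFD. Among the peroxide sources 0 were higher, with 0 of 7 lower in WT-NC and 3 of 6 in KI-HFD.

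Some members varied within groups along a number that the name of each count table carries, and so did many other genes. The number was in the 200s for 8 libraries and in the 500s for 4. What the number stands for is not given in the sources used here. However, 5 of the numbers each occur in 1 BAT and 1 IWAT table, both WT-NC or both KI-HFD. The tests between depots and of the interaction treat all libraries as independent. Should the number mark an animal, they ignore that pairing. In BAT the tables in the 500s are WT-NC replicate 3 and KI-HFD replicate 1. These were the 2 highest of 6 BAT libraries for 11 of 43 members, against 18.3% of all genes, among them catalase, all 3 thioredoxin reductases, Prdx1, Prdx3 and Prdx6. They were the 2 lowest for 6 of 43 members, a share close to the 15.1% of all genes, with Sod1, Gstm5 and Gstp1 among them. The same 2 BAT libraries had the lowest share of reads in no gene, 5.30 and 4.99% against 7.64 to 11.6%. Their share of reads not unique was also the lowest, 23.0 and 22.7% against 25.5 to 31.6%. The part of these library differences in the pattern was not tested. In IWAT the tables in the 500s are replicate 3 of both groups, and KI-HFD replicate 3 is also the library with 985 CPM of lymphocyte markers and the largest TMM factor (1.25). They were the 2 lowest for 16 of 42 members, against 11.6% of all genes, and the 2 highest for 0, against 7.56%. The part of that library's composition in this pattern was not tested. Catalase had 1503 CPM in BAT WT-NC replicate 3 and 1573 CPM in KI-HFD replicate 1 against 544.5 to 940.3 CPM in the other 4. Within the libraries of the 200s alone, the log2 fold changes of KI-HFD over WT-NC were 1.31 for Gpx3, 1.07 for Gpx8 and 1.51 for Gstm7 in BAT. In IWAT they were 2.04 for Gpx3, 0.89 for Gstm4 and 1.34 for Gsta4.

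**Figure D5:**
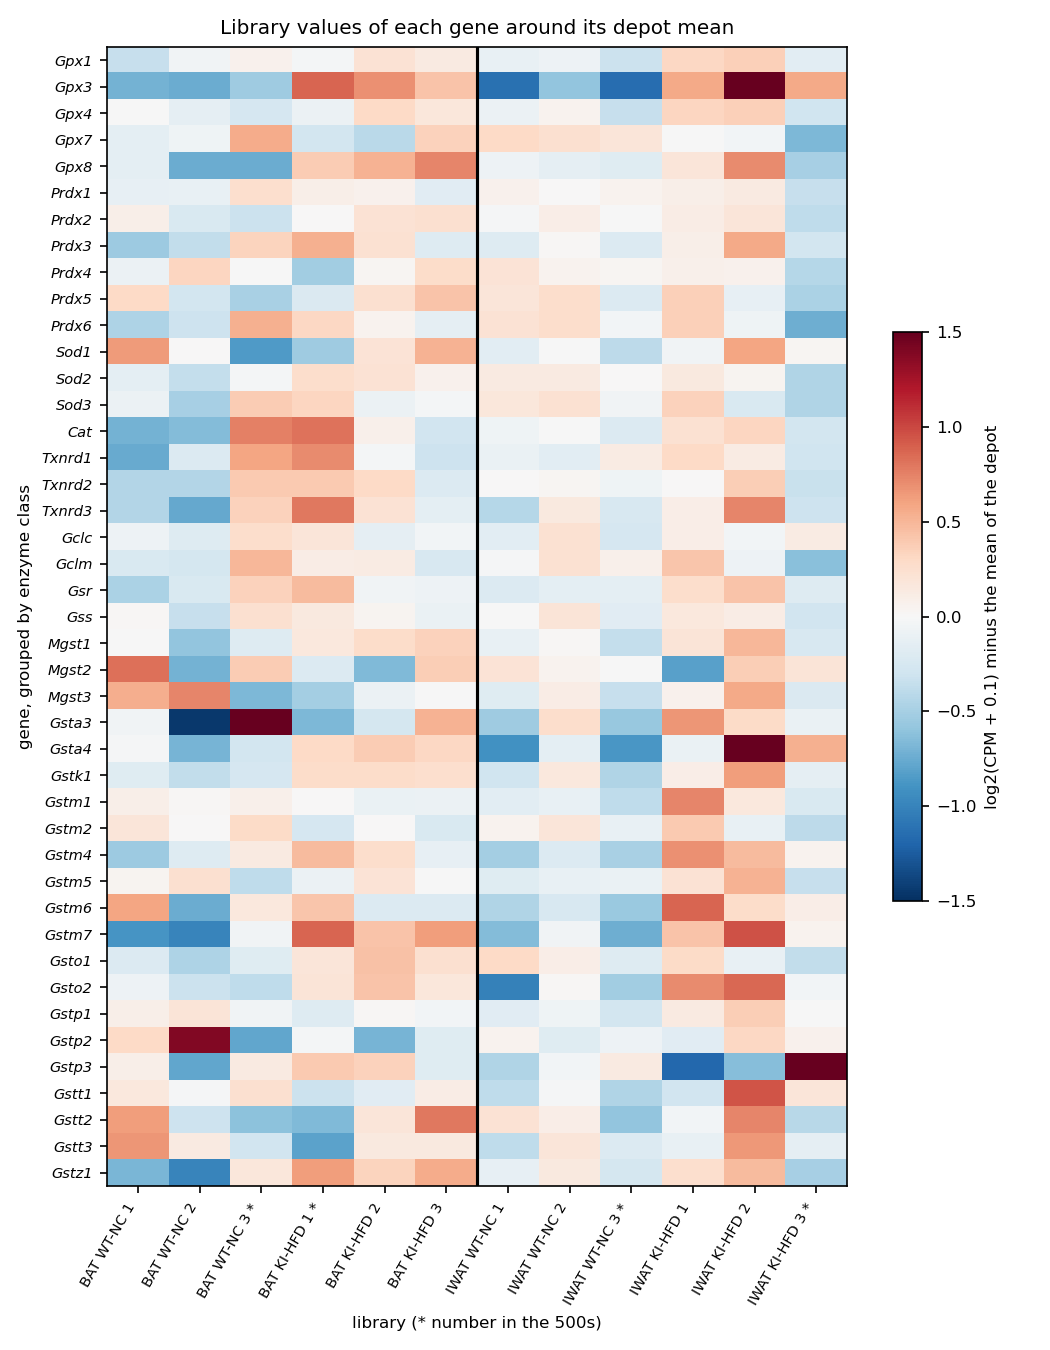
Values of each member tested in BAT (rows, grouped by class) in each library (columns), as log2(CPM + 0.1) minus the mean over the 6 libraries of the depot, with colours limited at 1.5 and asterisks for tables numbered in the 500s. Gpx3 is low in WT-NC and high in KI-HFD in both depots, whereas Cat and Txnrd1 are high in BAT WT-NC replicate 3 and KI-HFD replicate 1.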

How the data were processed

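RNA was extracted with Trizol and a Qiagen kit, and poly-A libraries were sequenced single-end without strand, per the labels' protocols. FastQC, STAR, HTSeq, DESeq2 and the build GRCm38.p5 are named in the submitters' processing notes, with versions not given in the sources used here. The authors deposited raw read counts per gene for each library, and for each depot a table with the base mean (a normalised signal), log2 fold change, its standard error and Wald statistic (scores) and p-values. The enzyme genes and every gene list were chosen with earlier results of these data known. Tally lines of HTSeq, present in the BAT tables only, were left out (4.99 to 11.6% of their totals in no gene and 22.7 to 31.6% not unique).

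From the counts, edgeR 4.0.16 (R 4.3.3) was run with filterByExpr (minimum count 10), TMM scaling, the quasi-likelihood test and Benjamini-Hochberg adjustment over all genes tested, with a threshold of 0.05. Each comparison used its own 6 libraries, and the interaction all 12. DESeq2 1.42.0 and limma-voom (limma 3.58.1) were alternatives. The SE given with edgeR is the absolute log2 fold change divided by the square root of the test's F statistic. The 95% intervals are the estimate ± 1.96 SE, a normal quantile that may make them too narrow with so few libraries. CPM used TMM factors over the 12 libraries, and RPKM the union of GENCODE M21 exons. The tests were checked on simulated data. Reads of antisense or overlapping genes cannot be told apart. Sharing was measured as 50-base stretches of the principal transcript found in other genes. Promoter sequences are from RefSeq (GRCm38.p6). Members were named as the up to 12 with the lowest p among those past the threshold in a comparison, or the 5 with the lowest p where fewer than 5 passed, with the 2 highest of each class by RPKM, and pathway genes as up to 6 a comparison. Other called members, Gclm, Prdx1 and Prdx6 were named after their values were seen. Intervals and floors cover counting error or the spread between libraries only.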

Additional observations from a re-analysis of the deposited data

How the results depend on the processing

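The number of all genes called between KI-HFD and WT-NC in BAT, 7 with edgeR, was 0 with RLE size factors, library totals, limma-voom, all 12 libraries in 1 fit or the number series as a term, 207 with no filter on low counts, 269 with DESeq2, 11 with the replicate block and 1 in the libraries of the 200s alone. DESeq2 called 3 members there. In IWAT, with 0 genes called, it was 2 with library totals, 45 with no filter, 341 with DESeq2 and 1 with all 12 libraries, and members called were 1 with no filter and 3 with DESeq2. With the number in the table's name as a block, the depots differed in 1564 genes and 10 members in WT-NC. The interaction called 33 genes with no filter and 28 with DESeq2. The cause was not tested. Leaving out 1 library gave 0 to 2 genes and 0 members in BAT, and 0 to 10 genes and 0 members in IWAT, with 10 genes without KI-HFD replicate 3. Between depots it gave 1911 to 6969 genes and 11 to 25 members in WT-NC, with 1911 genes without IWAT replicate 1, 2393 without replicate 2, 1912 without replicate 3 and 6969 without BAT replicate 3. In KI-HFD it gave 3463 to 5243 genes and 14 to 23 members, with 3463 genes without BAT replicate 2. Samples that share a replicate number in the titles gave mixed correlations of their deviations (-0.35 to 0.39, with not every sample closest to its own number), those that share the number in the table's name gave -0.13 to 0.07, and neither number was taken as a pairing. The replicate block called 17 members in WT-NC and 26 in KI-HFD between depots, given here without the share of all genes. For the members named by the lowest p, 628 alternatives kept direction and side of the threshold, 7 passed it, 4 lost it and 0 reversed. Over all members called between depots losses were more common, since 10 of 20 in WT-NC and 14 of 28 in KI-HFD kept the call in all 16 alternatives. With 3 libraries a group, p-values cannot separate small differences from the spread.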
